A study of Mus musculus with 2 samples.

Results

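Collagen chain genes encode the alpha chains that fold in threes into collagen molecules, and 44 of the 33696 genes in the deposited files are described here. They were chosen by name: every gene whose symbol is Col, a number, the letter a and a number, with nothing after it. They were followed across the cell groups of the mouse dura mater, the outermost membrane around the brain, by droplet-based single-cell RNA sequencing of the 3′ ends of transcripts. 1 library came from female mice 14 days after jugular vein ligation (the JVL-14 group), and 1 from female mice after sham surgery (sham). The time between sham surgery and collection, the strain, the age and the number of mice behind each library are not given in the sources used here. Per the labels' protocols, the peeled dura was digested with collagenase D and DNase I, cells of 2 meninges were combined per well, viable singlets were sorted, and 20000 cells were loaded per library. The series' title names cerebral venous flow and fluid clearance by dural lymphatics as its subject.

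Collagens are the main structural proteins of connective tissue. Fibrillar chains build the load-bearing fibres, network-forming chains build basement membranes and sheets, beaded filaments of collagen VI link cells to fibres, and fibril-associated collagens (FACIT) decorate the fibre surface. In the dura, collagen fibres laid down by fibroblasts give the membrane its strength, and each chain must be hydroxylated, assembled with its partners, secreted, cleaved and crosslinked before it becomes part of a fibre.

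With 1 library per group, no difference below has a replicate check and no test was made. Brackets give exact 95% intervals for counting error alone, and each ratio divides the JVL-14 level by the sham level. The deposited barcodes held 18796260 UMIs (unique molecular identifiers, 1 per captured transcript) in JVL-14 and 33996641 in sham, and 2471 JVL-14 cells and 4672 sham cells were retained, with medians of 4530 UMIs per cell in JVL-14 and 4502.5 in sham. The libraries shared 2 barcodes. They also differed in which tissues they held: pineal and choroid plexus cells, 52 and 80 in sham, were not seen in JVL-14, and skeletal muscle cells numbered 3 in JVL-14 and 249 in sham. Cell groups were rebuilt from marker genes, none of them a collagen, and collagen genes were left out of the genes used for clustering. Names stand for likeness, so that fibroblast means fibroblast-like. A group of 2 clusters led by Ccn3 and Sfrp4 took no name, because their leading genes held arachnoid barrier markers, Slc4a10 and Slc47a1 in the larger cluster, while the barrier genes Cdh1 and Dpp4 were not raised. They are called Ccn3 Sfrp4 cells. Levels are UMIs of a gene per 1000000 UMIs of the cell group (CPM). Each UMI marks 1 transcript end, so levels were not divided by gene length, and how well each gene's end was captured was not tested.

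Collagen transcripts came almost wholly from 4 stromal groups. Osteoblast lineage cells, tenocytes, fibroblasts and Ccn3 Sfrp4 cells together held 97.2% (97.2% to 97.3%) of the 240516 collagen UMIs. Osteoblast lineage cells, the bone-forming cells, had the highest summed level, with 35540 CPM (34990 to 36100) in 59 JVL-14 cells, against 31710 CPM (31230 to 32200) in 85 sham cells. Fibroblasts had 15190 CPM (15040 to 15350) in 422 JVL-14 cells and 12330 CPM (12230 to 12420) in 846 sham cells. Tenocytes, here cells led by Chad and Comp, had 13330 CPM in 142 JVL-14 cells and 13530 CPM in 317 sham cells. These 3 groups stood above mural cells, the contractile cells of vessel walls, which had 10470 CPM in 16 JVL-14 cells and 8332 CPM in 21 sham cells. Ccn3 Sfrp4 cells followed with 7921 CPM in 242 JVL-14 cells and 8366 CPM in 641 sham cells. Schwann or other glial cells had 3072 CPM in JVL-14 and 2706 CPM in sham, and blood endothelial cells 2014 CPM in JVL-14 and 2576 CPM in sham. In B lineage cells and neutrophils, which are not known for making collagen, the summed level was 70.6 CPM over 501 JVL-14 cells and 79.3 CPM over 545 sham cells, and these are called background cells below. The level was not the same in all of them: it was 109 CPM in JVL-14 and 115 CPM in sham B cells, 84.5 CPM in JVL-14 and 126 CPM in sham B cell precursors, and 26.5 CPM in JVL-14 and 40.2 CPM in sham neutrophils.

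**Figure D1:**
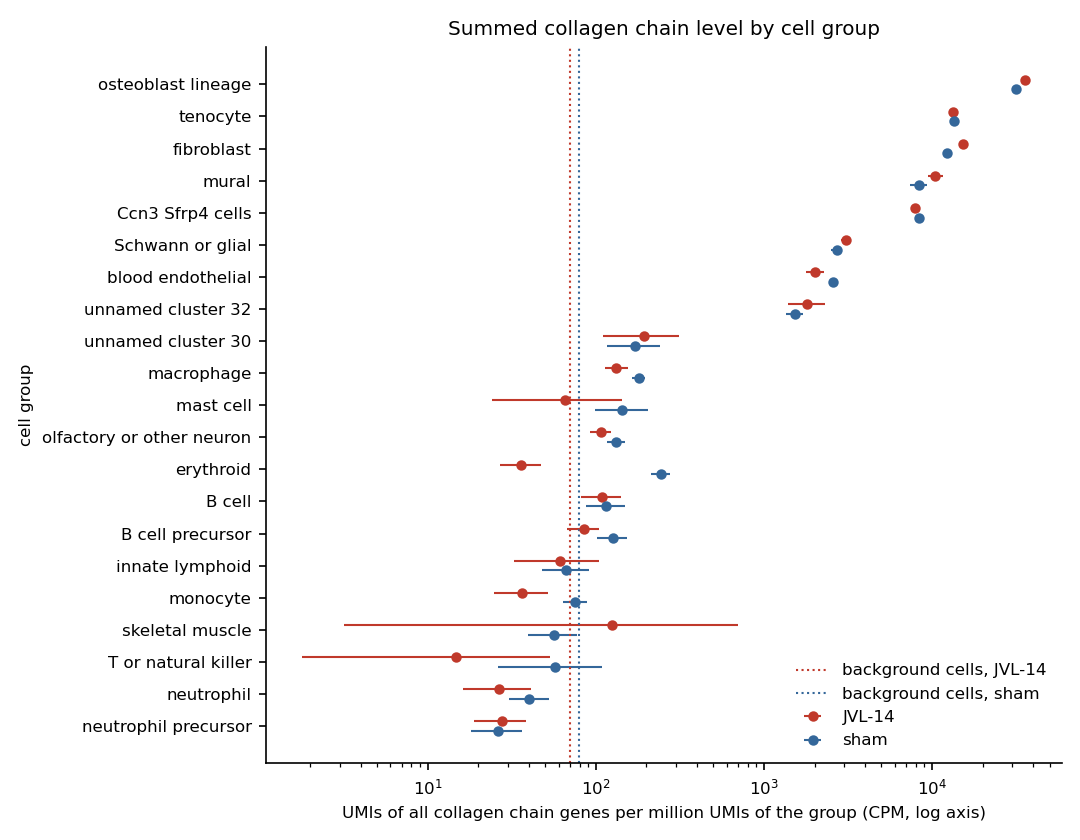
Summed CPM of all 44 collagen chain genes in each cell group (horizontal log axis) in JVL-14 (red, upper point) and sham (blue, lower point), with exact 95% counting intervals. Dotted lines mark the level in B lineage cells and neutrophils; osteoblast lineage cells stand highest at 35540 CPM in JVL-14 and 31710 CPM in sham, and most blood cell groups lie near the dotted lines.

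Summed over all chains, the level in fibroblasts was higher in JVL-14, with a ratio of 1.23 (1.22 to 1.25). It was also higher in osteoblast lineage cells, with a ratio of 1.12 (1.10 to 1.15), and in Schwann or glial cells, with 1.14 (1.02 to 1.26). Tenocytes had a ratio of 0.985 (0.966 to 1.01), Ccn3 Sfrp4 cells 0.947 (0.928 to 0.966) and blood endothelial cells 0.782 (0.681 to 0.894). The 2 clusters of Ccn3 Sfrp4 cells lay on opposite sides of 1: the larger, cluster 0, had a ratio of 0.932 (0.912 to 0.952), and cluster 10, led by Penk and Gsta4, had 1.16 (1.10 to 1.23). In fibroblasts the summed markers of fibroblasts themselves stood at 20380 CPM in JVL-14 and 22380 CPM in sham, with none of 14 at 0 UMIs. Tenocyte markers stood at 1467 CPM in JVL-14 and 1081 CPM in sham fibroblasts, with none of 9 at 0, and arachnoid barrier markers at 2403 CPM in JVL-14 and 3379 CPM in sham, with Cdh1 and Krt18 at 0 in JVL-14. Their part in the fibroblast ratio was not tested. Fibroblasts held 45.7% (45.3% to 46.0%) of collagen UMIs in JVL-14 and 39.6% (39.4% to 39.8%) in sham, while they were 17.1% of JVL-14 cells and 18.1% of sham cells. With at least 500 genes per cell the collagen shares were 54.8% in JVL-14 and 55.2% in sham, so the order of the libraries turned. That run clustered and named the cells anew. Its Ccn3 Sfrp4 cells were a cluster of 81 JVL-14 and 277 sham cells, against 242 JVL-14 and 641 sham cells in the main run. Its fibroblasts were thus another set of cells. Col1a1, Col1a2 and Col3a1 carried most of the fibroblast difference: their sum was 10460 CPM in JVL-14 and 7879 CPM in sham, a ratio of 1.33 (1.31 to 1.35). The other 41 genes together had 4731 CPM in JVL-14 and 4449 CPM in sham, a ratio of 1.06 (1.04 to 1.09). Averaged within the 5 fibroblast clusters with at least 20 cells in each library, the summed ratio was 1.05, and without cluster 6, the fibroblast cluster led by Plac9 and Lum, it was 1.13.

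Of the 44 genes, 30 had at least 50 UMIs over all retained cells, and 14 had fewer. The 30 are described by the group with the highest CPM over both libraries among the groups with at least 10 of the gene's UMIs. Osteoblast lineage cells were highest for 10 of the 30, mural cells for 5, fibroblasts for 4, Schwann or glial cells for 3, and tenocytes, blood endothelial cells and an unnamed cluster led by Mgarp and Edn3 (cluster 32) for 2 each. Pineal cells and Ccn3 Sfrp4 cells were highest for 1 each. A gene counted as measured within a group with at least 50 UMIs there. In fibroblasts 26 genes were measured, and 4 of them (Col4a5, Col8a1, Col26a1 and Col9a1) were at least 1.5-fold higher in JVL-14, beside 4.3% of all 9729 genes measured in these cells. Col5a3, Col6a5 and Col15a1 were at least 1.5-fold lower in JVL-14, 3 of 26 beside 7.11% of all genes measured. The median log2 ratio of the 26 was 0.10, beside 0.02 for all genes measured, and 19 of the 26 were above 0. Without cluster 6 the median was -0.0031. The cells left include cluster 31, with 3 JVL-14 and 62 sham cells, and its part in that median was not tested. None of the 7 genes stayed past 1.5-fold in every alternative run.

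**Figure D2:**
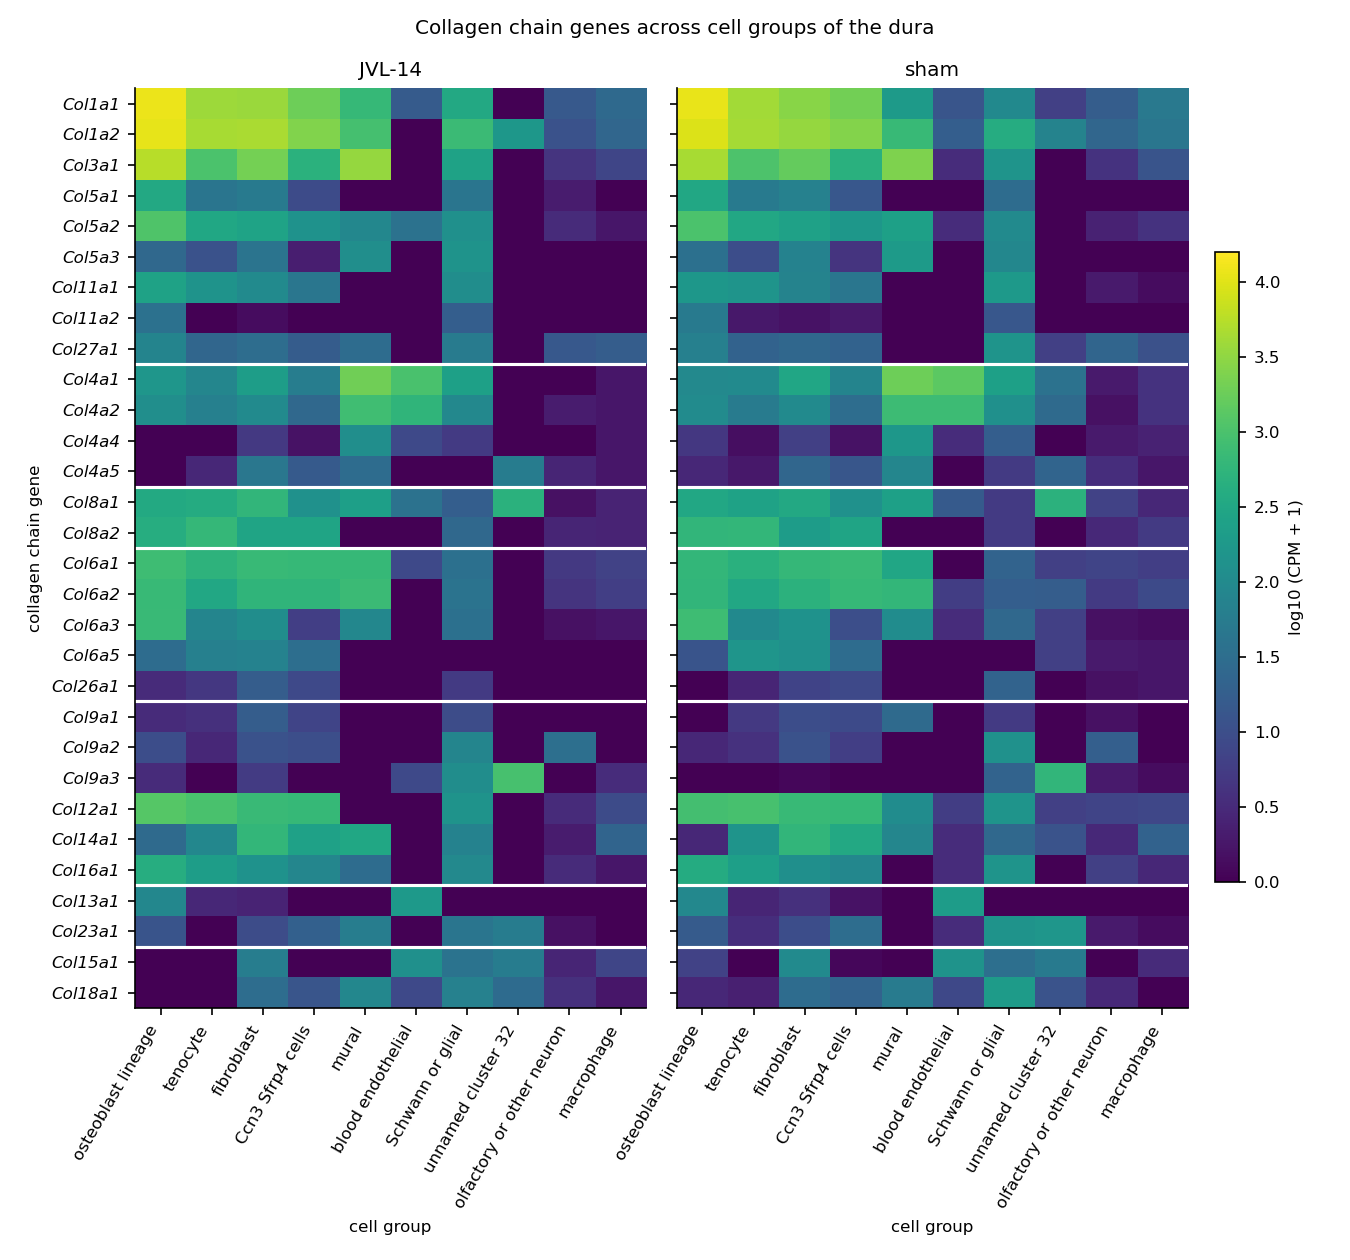
Level of the 30 collagen chain genes with at least 50 UMIs (rows, ordered by structural group, white lines between groups) in 10 cell groups (columns) of JVL-14 (left) and sham (right), as log10 of CPM plus 1. The fibrillar genes at the top are brightest in osteoblast lineage cells, tenocytes and fibroblasts of both libraries, Col4a1 and Col4a2 in mural and endothelial cells, and Col9a3 in cluster 32.

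Among the fibrillar collagens, the 2 chains of type I collagen, the main collagen of bone, tendon and dura, and Col3a1, the chain of type III collagen that is laid down with it in soft tissue and vessel walls, held 66.4% (66.2% to 66.6%) of all collagen UMIs. Col1a1 had 11990 CPM in JVL-14 and 11520 CPM in sham in osteoblast lineage cells, 3881 CPM in JVL-14 and 4153 CPM in sham in tenocytes, and 3764 CPM in JVL-14 and 2819 CPM in sham in fibroblasts. Osteoblast lineage cells were thus highest in both libraries, and among these 3 groups the libraries differed most in fibroblasts, where the ratio was 1.34 (1.30 to 1.37). Col1a1 was found in 91.5% of JVL-14 fibroblasts and 91.8% of sham fibroblasts, at medians of 4428 UMIs per cell in JVL-14 and 5229.5 in sham, against 2.99% of JVL-14 and 4.59% of sham background cells at medians of 3290 UMIs in JVL-14 and 3304 in sham. Col1a2 had 4585 CPM in JVL-14 fibroblasts and 3473 CPM in sham fibroblasts, a ratio of 1.32 (1.29 to 1.35). In osteoblast lineage cells Col1a2 had 11160 CPM in JVL-14 and 9538 CPM in sham, a ratio of 1.17 (1.13 to 1.22). Col3a1 had 2111 CPM in JVL-14 fibroblasts and 1587 CPM in sham fibroblasts, a ratio of 1.33 (1.28 to 1.38), so that the 3 genes stood at nearly the same ratio in these cells. Without cluster 6 the log2 ratio was 0.33 for Col1a1 and -0.01 for Col3a1. Within clusters Col3a1 was higher in JVL-14 in cluster 6 (ratio 1.40, 1.34 to 1.46), cluster 7 (1.55, 1.30 to 1.84) and cluster 11 (1.26, 1.16 to 1.38). The cells left without cluster 6 include cluster 31, where Col3a1 had 9008 CPM in 3 JVL-14 cells and 3649 CPM in 62 sham cells. Mural cells were second to osteoblast lineage cells for Col3a1, at 3491 CPM in JVL-14 and 2412 CPM in sham.

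The windows upstream of some genes that were higher in JVL-14 fibroblasts are shown. They are those of Col1a2 and Col3a1, with ratios of 1.32 and 1.33, and of Col8a1, which was past 1.5-fold and did not share that ratio. Each window is the 250 bases before the gene start as RefSeq places it on GRCm38.p6, a build other than the mm39 of the files. Of the 44 genes, 35 matched the table, and Col1a1 was not among them. Capitals mark matches on either strand to CCAAT (the CCAAT box), TATAAA (the TATA box) or GGGCGG (the GC box).
Col1a2, chr6:4505368-4505617, plus strand: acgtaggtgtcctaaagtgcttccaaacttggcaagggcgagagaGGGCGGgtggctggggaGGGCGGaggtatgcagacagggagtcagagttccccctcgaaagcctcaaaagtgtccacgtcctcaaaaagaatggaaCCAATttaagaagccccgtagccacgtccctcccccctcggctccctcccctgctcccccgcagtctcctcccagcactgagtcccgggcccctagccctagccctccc
Col3a1, chr1:45311288-45311537, plus strand: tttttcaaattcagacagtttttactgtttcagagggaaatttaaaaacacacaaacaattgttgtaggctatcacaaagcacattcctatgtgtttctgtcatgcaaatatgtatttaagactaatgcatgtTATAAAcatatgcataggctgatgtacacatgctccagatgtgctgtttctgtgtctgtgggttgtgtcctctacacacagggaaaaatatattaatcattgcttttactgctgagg
Col8a1, chr16:57754738-57754987, minus strand: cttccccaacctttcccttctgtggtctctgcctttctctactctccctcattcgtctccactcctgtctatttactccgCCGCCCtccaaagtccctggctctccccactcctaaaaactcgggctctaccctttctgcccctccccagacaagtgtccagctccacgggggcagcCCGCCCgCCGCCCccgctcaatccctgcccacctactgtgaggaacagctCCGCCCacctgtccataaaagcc
The Col1a2 window held a CCAAT match 109 bases before the start and 2 GC box matches, the Col3a1 window a TATAAA match 117 bases before the start, and the Col8a1 window 4 GC box matches. No motif was in all 3 windows. CCAAT was in 13 of 38 windows of collagen genes and in 33.8% of all 32851 windows, TATAAA in 5 of 38 and in 12.4% of all, and GGGCGG in 22 of 38 and in 32.7% of all. A match is a description of these letters only.

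The less abundant fibrillar chains varied more between cell groups and clusters. Col5a1 and Col5a2, whose type V collagen starts fibrils and limits their width, were highest in osteoblast lineage cells: Col5a1 had 344.5 CPM in JVL-14 and 334.3 CPM in sham there, and Col5a2 1106 CPM in JVL-14 and 1020 CPM in sham. In fibroblasts Col5a1 had 53.0 CPM in JVL-14 and 69.8 CPM in sham, a ratio of 0.758 (0.616 to 0.929), while Col5a2 had 276 CPM in JVL-14 and 252 CPM in sham, a ratio of 1.10 (0.999 to 1.21). Cluster 31, a fibroblast cluster of 3 JVL-14 and 62 sham cells, held 11 of the 131 fibroblast Col5a1 UMIs in JVL-14 and 144 of 355 in sham, and without it the Col5a1 ratio was 1.10 (0.869 to 1.38), on the other side of 1. Col11a1, a chain of type XI collagen best known from cartilage, had 99.5 CPM in JVL-14 fibroblasts and 73.8 CPM in sham fibroblasts, a ratio of 1.35 (1.14 to 1.59). In osteoblast lineage cells Col11a1 had 263.5 CPM in JVL-14 and 164 CPM in sham, a ratio of 1.60 (1.20 to 2.14), and the 5 cells with the most Col11a1 UMIs held 53.0% of them in JVL-14 and 47.7% in sham. Col11a2, its partner, had 43 of its 69 UMIs in osteoblast lineage cells. Col27a1, a fibrillar chain of cartilage, was highest in Schwann or glial cells at 55.3 CPM in JVL-14 and 151 CPM in sham, from 13 UMIs in JVL-14 and 36 in sham. The background of Col27a1 was 9.27 CPM in JVL-14 and 10.2 CPM in sham, and that of Col5a3 was 22.9 CPM in JVL-14 and 19.7 CPM in sham. Of the 52 Col5a3 UMIs of background cells in each library, 29 in JVL-14 and 44 in sham lay in B cell precursors, and none lay in neutrophils.

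Col5a3, a further chain of type V collagen, had a fibroblast ratio that turned without a single cluster. It had 39.6 CPM in JVL-14 fibroblasts and 71.2 CPM in sham fibroblasts, a ratio of 0.556 (0.440 to 0.697). Cluster 31, led by Clec3b and Ccl11, held 3 fibroblasts of JVL-14 and 62 of sham, and 61.6% of all Col5a3 UMIs of sham fibroblasts, against 6.12% in JVL-14. Without cluster 31 the log2 ratio of Col5a3 was 0.35, on the other side of 0. The main fibrillar genes were not evenly higher across fibroblast clusters either. In cluster 6 Col1a1 had 4475 CPM in JVL-14 and 3252 CPM in sham (ratio 1.38, 1.32 to 1.43), in cluster 7, led by H19 and Mgp, 3720 CPM in JVL-14 and 2702 CPM in sham, and in cluster 11, led by Myoc and Gas1, 3779 CPM in JVL-14 and 3286 CPM in sham. In cluster 19, led by the interferon-induced genes Ifit3 and Isg15, Col1a1 had 1798 CPM in JVL-14 and 2227 CPM in sham (ratio 0.807, 0.720 to 0.903), and in cluster 20, led by Apod and Dcn, 1088 CPM in JVL-14 and 1487 CPM in sham (ratio 0.731, 0.599 to 0.888). Col1a1, Col1a2 and Col3a1 were each higher in JVL-14 in 3 of these 5 clusters and lower in 2. Cluster 19, whose collagen level was low, made up 5.45% (3.49% to 8.07%) of JVL-14 fibroblasts and 12.1% (9.94% to 14.4%) of sham fibroblasts. For a group as a whole, more cells of a collagen-rich kind and a larger collagen share of the UMIs within cells cannot be told apart by these sums.

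**Figure D3:**
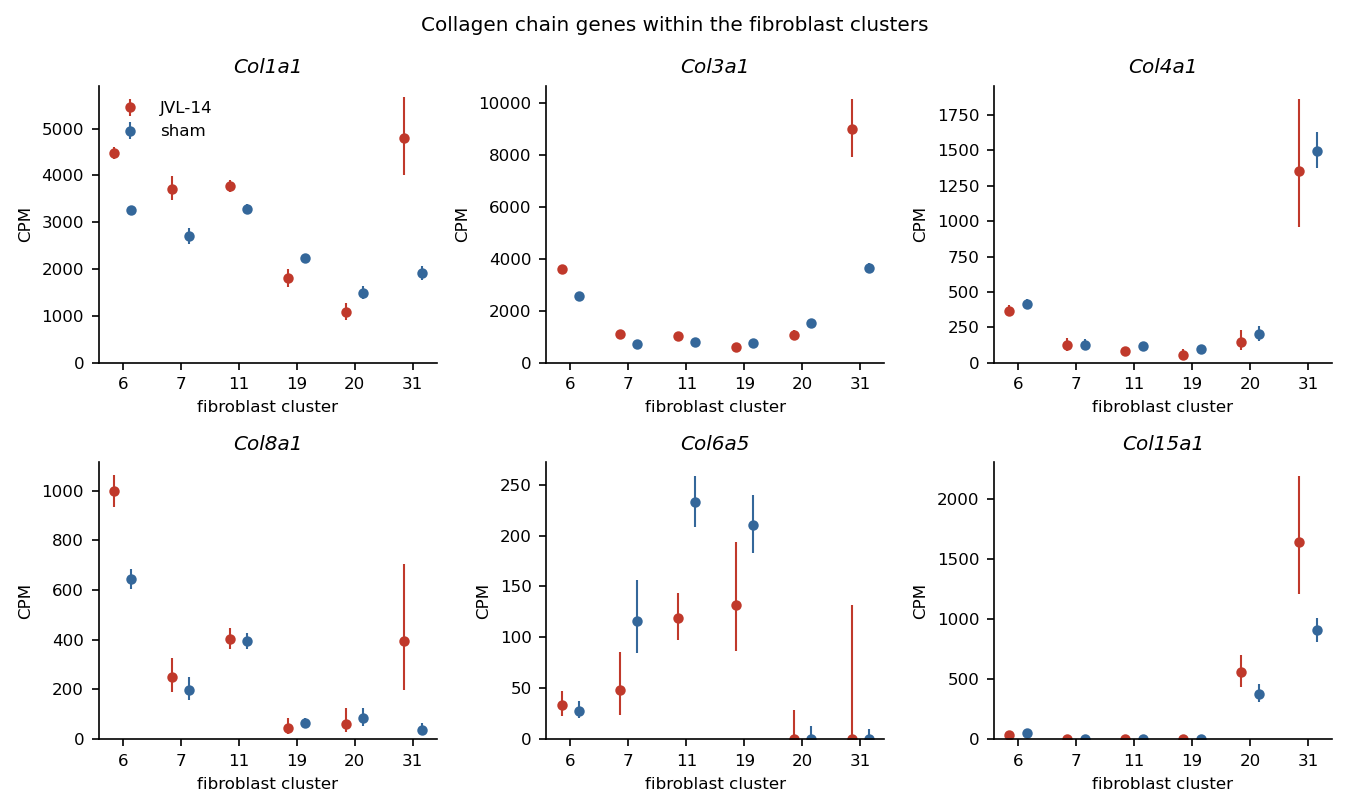
CPM of 6 collagen chain genes (vertical axes, each starting at 0) in the 6 fibroblast clusters (horizontal axis, by cluster number) of JVL-14 (red, left) and sham (blue, right), with exact 95% counting intervals. Col1a1 and Col3a1 are higher in JVL-14 in clusters 6, 7 and 11 and lower in clusters 19 and 20, Col15a1 is highest in clusters 20 and 31, and cluster 31 holds 3 JVL-14 cells and 62 sham cells.

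Collagen IV forms the network of basement membranes. Its ubiquitous chains Col4a1 and Col4a2 were highest in mural cells, where Col4a1 had 1978 CPM in JVL-14 and 1891 CPM in sham and Col4a2 had 814.5 CPM in JVL-14 and 767 CPM in sham. Blood endothelial cells followed, with 999 CPM of Col4a1 in JVL-14 and 1375 CPM in sham (ratio 0.727, 0.597 to 0.879) and 563.5 CPM of Col4a2 in JVL-14 and 765 CPM in sham (ratio 0.737, 0.565 to 0.950). These cells formed 2 clusters in unlike proportions: cluster 18, led by Plvap and Igfbp3, had 43 JVL-14 and 97 sham cells, and cluster 27, led by Fabp4 and Ly6c1, had 3 JVL-14 and 71 sham cells. Within cluster 18 the ratio was 0.770 (0.626 to 0.942) for Col4a1 and 0.747 (0.559 to 0.986) for Col4a2. Within cluster 27 it was 0.530 (0.170 to 1.26) for Col4a1 and 1.43 (0.599 to 2.92) for Col4a2, the second from 8 UMIs in JVL-14 and 103 in sham. With cluster composition standardised, an alternative chosen after seeing the data, the log2 ratio was -0.49 for Col4a1 and -0.11 for Col4a2. All 4 genes measured in blood endothelial cells (with Col13a1 and Col15a1) lay below 0 on the log2 scale and none was past 1.5-fold, beside 10.4% higher and 11.5% lower of all genes measured there. Summed erythroid markers stood at 759 CPM in 46 JVL-14 endothelial cells and 29300 CPM in 168 sham endothelial cells, with Klf1 and Rhd at 0 UMIs in both, and their part in these ratios was not tested. In fibroblasts Col4a1 had 214 CPM in JVL-14 and 310.2 CPM in sham, a ratio of 0.689 (0.624 to 0.761), while Col4a2 had 102 CPM in JVL-14 and 99.5 CPM in sham, a ratio of 1.02 (0.877 to 1.19). Col4a1 was lower in JVL-14 in all 5 compared fibroblast clusters, by log2 ratios between -0.84 and -0.05. Among fibroblast clusters Col4a1 was highest in cluster 31, at 1358 CPM in JVL-14 and 1498 CPM in sham, and without that cluster its fibroblast ratio was 0.922 (0.826 to 1.03). Without cluster 31 the Col4a2 ratio was 1.295 (1.094 to 1.531). Without cluster 6 the ratio was 0.434 (0.367 to 0.512) for Col4a1 and 0.663 (0.513 to 0.848) for Col4a2.

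The other chains of collagen IV form trimers with a narrower distribution, such as that of the kidney filter. Col4a5 had 65.5% of its 359 UMIs in fibroblasts, at 46.1 CPM in JVL-14 and 23.8 CPM in sham, a ratio of 1.94 (1.49 to 2.52). In cluster 6 Col4a5 had 95.9 CPM in JVL-14 and 31.1 CPM in sham (ratio 3.09, 2.16 to 4.46). The 5 cells with the most Col4a5 UMIs held 59.6% of them in JVL-14 and 24.0% in sham, and without cluster 6 the log2 ratio was -0.59. Mural cells had a higher Col4a5 level over both libraries, 56.5 CPM against 31.1 CPM in fibroblasts, but from 4 UMIs. Its neighbour in trimers, Col4a6, had 29 UMIs in all, and Col4a4 had 85, of which 37 lay in fibroblasts. Col4a4 had its highest CPM in mural cells, where 10 UMIs were counted.

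Collagen VIII forms sheet-like networks and is known from vessel walls and the cornea. Col8a1 was highest in the pineal cells of sham, at 701 CPM, and in cluster 32, at 477 CPM in JVL-14 and 499 CPM in sham. In fibroblasts it had 579 CPM in JVL-14 and 348 CPM in sham, a ratio of 1.66 (1.55 to 1.79). Col8a1 was in 50% of JVL-14 fibroblasts and 46.1% of sham fibroblasts. In cluster 6 it had 998 CPM in JVL-14 and 643 CPM in sham (ratio 1.55, 1.42 to 1.70), and in cluster 11 404 CPM in JVL-14 and 394 CPM in sham (ratio 1.03, 0.899 to 1.17). The log2 ratio averaged within clusters was 0.03, and without cluster 6 it was 0.50. In tenocytes Col8a1 had 378 CPM in JVL-14 and 262 CPM in sham, a ratio of 1.44 (1.27 to 1.64). Its partner Col8a2 had another distribution: it was highest in tenocytes, at 623 CPM in JVL-14 and 611 CPM in sham, next in osteoblast lineage cells, at 419 CPM in JVL-14 and 573 CPM in sham, and it had no UMI in pineal cells or cluster 32. In fibroblasts Col8a2 had 279 CPM in JVL-14 and 207 CPM in sham, a ratio of 1.35 (1.23 to 1.49). Both chains of collagen VIII were thus higher in JVL-14 fibroblasts, and in osteoblast lineage cells Col8a2 was lower, with a ratio of 0.731 (0.605 to 0.880). Col10a1, the collagen of cartilage that is turning into bone, and Col7a1, which anchors skin to its basement membrane, were sparse: Col10a1 had 5 UMIs and Col7a1 had 29 UMIs over both libraries.

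**Figure D4:**
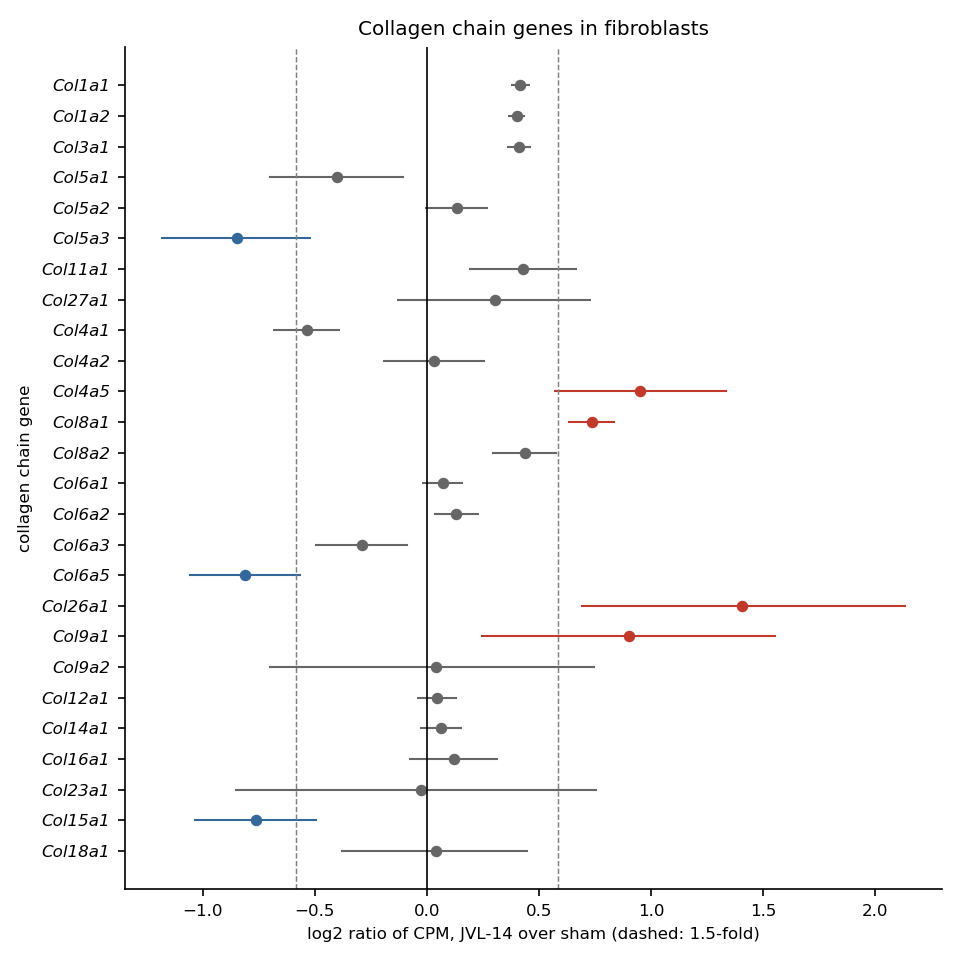
Log2 ratio of CPM, JVL-14 over sham (horizontal axis), of the 26 collagen chain genes measured in fibroblasts (rows), with exact 95% counting intervals. The solid line marks no difference and the dashed lines 1.5-fold; Col4a5, Col8a1, Col26a1 and Col9a1 (red) lie beyond the right dashed line and Col5a3, Col6a5 and Col15a1 (blue) beyond the left.

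The core chains of collagen VI stood at like levels in several stromal groups. Col6a1, a core chain of its beaded filaments, had 667 CPM in JVL-14 and 635 CPM in sham in fibroblasts, 659 CPM in JVL-14 and 705 CPM in sham in Ccn3 Sfrp4 cells, and 772 CPM in JVL-14 and 602 CPM in sham in osteoblast lineage cells. Col6a2, the second core chain, had 557 CPM in JVL-14 and 508 CPM in sham in fibroblasts and 552 CPM in JVL-14 and 640.0 CPM in sham in Ccn3 Sfrp4 cells. Over both libraries the highest groups differed little: 694 CPM in Ccn3 Sfrp4 cells, 680.1 CPM in osteoblast lineage cells and 645 CPM in fibroblasts for Col6a1. Col6a3, the remaining chain of the classical trimer, varied far more, with 709 CPM in JVL-14 and 781 CPM in sham in osteoblast lineage cells, 114 CPM in JVL-14 and 139 CPM in sham in fibroblasts, and 4.99 CPM in JVL-14 and 9.27 CPM in sham in Ccn3 Sfrp4 cells. Ccn3 Sfrp4 cells therefore had the core chains at the fibroblast level and little Col6a3. Of the chains that can take the place of Col6a3, Col6a5 had 32.4 CPM in JVL-14 and 29.0 CPM in sham there, while Col6a4 had 2 and Col6a6 15 UMIs in all cells.

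Col6a5 was lower in JVL-14 in both of its main groups. In tenocytes it had 67.0 CPM in JVL-14 and 151 CPM in sham, a ratio of 0.443 (0.338 to 0.573), and in fibroblasts 72.0 CPM in JVL-14 and 126 CPM in sham, a ratio of 0.571 (0.481 to 0.675). Its UMIs lay in few cells: 8.45% of JVL-14 and 10.7% of sham tenocytes had any, and the 5 cells with most held 74.6% of them in JVL-14 and 48.6% in sham. In fibroblast cluster 11 Col6a5 had 119 CPM in JVL-14 and 233 CPM in sham (ratio 0.510, 0.407 to 0.635). Col26a1, a short collagen outside the main families, had 16.2 CPM in JVL-14 and 6.10 CPM in sham in fibroblasts, a ratio of 2.65 (1.62 to 4.39) from 40 UMIs in JVL-14 and 31 in sham. Of these, 18 in JVL-14 and 5 in sham lay in cluster 20. With cells thinned to 1000 UMIs the log2 ratio was -0.43. Thinning keeps only part of these few UMIs, so that sign is not read. In Schwann or glial cells Col26a1 had 12.7 CPM over both libraries, from 6 UMIs, and in fibroblasts 9.40 CPM. Col28a1, known from the glia of peripheral nerves, had 29 of its 42 UMIs in Schwann or glial cells.

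Of the FACIT collagens, 3 were abundant. Col12a1, which binds type I fibrils in tendon and bone, had 1236 CPM in JVL-14 and 867 CPM in sham in osteoblast lineage cells (ratio 1.43, 1.26 to 1.62), 995 CPM in JVL-14 and 951 CPM in sham in tenocytes, and 696 CPM in JVL-14 and 674 CPM in sham in fibroblasts (ratio 1.03, 0.974 to 1.10). Col14a1, a related chain of soft connective tissue, had another distribution: it was highest in fibroblasts, at 604 CPM in JVL-14 and 578 CPM in sham (ratio 1.04, 0.981 to 1.11), while osteoblast lineage cells had 12 UMIs in JVL-14 and 1 in sham. In tenocytes Col14a1 had 85.9 CPM in JVL-14 and 151 CPM in sham, a ratio of 0.569 (0.447 to 0.719). In Ccn3 Sfrp4 cells it had 249 CPM in JVL-14 and 345 CPM in sham, a ratio of 0.720 (0.644 to 0.803). Col14a1 was thus lower in JVL-14 in tenocytes and Ccn3 Sfrp4 cells, and within counting error of no difference in fibroblasts. Col16a1, a FACIT of many connective tissues, was highest in osteoblast lineage cells, at 414 CPM in JVL-14 and 390 CPM in sham, and next in tenocytes, at 213 CPM in JVL-14 and 238 CPM in sham.

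Collagen IX, the cartilage FACIT, needs 3 different chains, and each of these had another group as its highest. Col9a1 was mainly in fibroblasts, at 16.2 CPM in JVL-14 and 8.66 CPM in sham, a ratio of 1.87 (1.19 to 2.93) from 40 UMIs in JVL-14 and 44 in sham. The 5 cells with most held 55.0% of these in JVL-14 and 47.7% in sham. Col9a2 was highest in Schwann or glial cells, at 80.8 CPM in JVL-14 and 130 CPM in sham, and also found in olfactory or other neurons, at 33.5 CPM in JVL-14 and 17.6 CPM in sham. Fibroblasts held more Col9a2 UMIs than Schwann or glial cells, 78 against 50 over both libraries, and their Col9a2 level of 10.3 CPM was close to their Col9a1 level of 11.1 CPM. The 2 chains lay mostly in different fibroblast clusters, however. Cluster 20 held 24 of 26 fibroblast Col9a2 UMIs in JVL-14 and 44 of 52 in sham. It held 1 of 40 fibroblast Col9a1 UMIs in JVL-14 and 0 of 44 in sham. Col9a3 was highest in cluster 32, at 954 CPM in JVL-14 and 574 CPM in sham, and in the choroid plexus cells of sham, at 277 CPM, where Col9a2 had no UMI. Schwann or glial cells held both Col9a2, at 106 CPM over both libraries, and Col9a3, at 67.6 CPM. Across the 23 cell groups the levels of Col9a2 and Col9a3, as log2 of CPM plus 1 over both libraries, had a Pearson r of 0.135, given as a description, since groups share libraries and depth. Over both libraries Col19a1 had 2 UMIs, Col20a1 had 31 and Col22a1, known from tissue junctions, had 21, of which 19 lay in osteoblast lineage cells.

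The transmembrane collagens stay anchored to the cell that makes them. Col13a1, known from the neuromuscular junction, lay in blood endothelial cells, at 188 CPM in JVL-14 and 210 CPM in sham (ratio 0.896, 0.550 to 1.41), and in osteoblast lineage cells, at 85.6 CPM in JVL-14 and 91.7 CPM in sham. The 5 osteoblast lineage cells with most Col13a1 held 94.7% of its UMIs in JVL-14 and 93.8% in sham. Col23a1 was highest in cluster 32, with 2 UMIs in JVL-14 and 30 in sham, and was spread over Ccn3 Sfrp4 cells, at 18.1 CPM in JVL-14 and 30.1 CPM in sham (ratio 0.600, 0.389 to 0.896). Col17a1, which holds epithelium to its basement membrane, had 8 UMIs over both libraries, and Col25a1 had 36.

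The multiplexins sit in basement membrane zones. Col15a1 was highest in blood endothelial cells, at 128 CPM in JVL-14 and 145 CPM in sham. In fibroblasts it had 60.2 CPM in JVL-14 and 102 CPM in sham, a ratio of 0.590 (0.488 to 0.709), and as with Col5a3 this rested on cluster 31, which held 30.9% of the fibroblast Col15a1 UMIs in JVL-14 and 64.2% in sham. Within cluster 31 Col15a1 had 1644 CPM in JVL-14 and 907 CPM in sham (ratio 1.81, 1.30 to 2.47, from 3 JVL-14 and 62 sham cells), and within cluster 20 it had 556 CPM in JVL-14 and 377 CPM in sham (ratio 1.47, 1.08 to 2.01). Cluster 6 went the other way, at 32.7 CPM in JVL-14 and 49.4 CPM in sham (ratio 0.660, 0.423 to 1.01). Without cluster 31 the log2 ratio over the other fibroblasts was 0.10. Col18a1, whose end fragment is endostatin, was highest in Schwann or glial cells, at 68.1 CPM in JVL-14 and 201 CPM in sham (ratio 0.338, 0.179 to 0.606, from 16 UMIs in JVL-14 and 48 in sham), and in fibroblasts it had 30.7 CPM in JVL-14 and 29.9 CPM in sham.

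The 14 genes with fewer than 50 UMIs were Col2a1, Col24a1, Col4a3, Col4a6, Col10a1, Col7a1, Col6a4, Col6a6, Col28a1, Col19a1, Col20a1, Col22a1, Col17a1 and Col25a1. Each had at least 1 UMI. Col2a1, the main collagen of cartilage, had 44 UMIs, 24 in JVL-14 and 20 in sham, and Col24a1, a fibrillar chain of bone, had 15.

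Outside fibroblasts, the counts of genes past 1.5-fold were as follows. In osteoblast lineage cells 17 genes were measured, Col11a1 and Col4a1 were higher and none was lower, beside 5.32% higher and 8.38% lower of all genes measured there. Col4a1 had 162 CPM in JVL-14 and 95.5 CPM in sham in these cells (ratio 1.70, 1.17 to 2.49). Its log2 ratio was -0.14 with cells thinned to 1000 UMIs, which keep only part of its 122 UMIs. The median log2 ratio of the 17 was 0.16, beside 0.0040 over all genes measured. Summed erythroid markers stood at 14480 CPM in JVL-14 and 365 CPM in sham in this group, with 4 of 11 at 0 UMIs in JVL-14 and 5 in sham, and summed osteoblast markers at 11800 CPM in JVL-14 and 20520 CPM in sham. Summed mural markers stood at 2180 CPM in JVL-14, with 6 of 13 at 0 UMIs, and 1479 CPM in sham, with 3 at 0. Their part in the collagen ratios was not tested. With at most 5% mitochondrial UMIs the summed collagen ratio of the group was 0.954, and without doublet removal 0.932.

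In tenocytes 18 genes were measured, none was higher, and Col6a5 and Col14a1 were lower, beside 5.48% higher and 5.77% lower of all genes. Col1a2, the most abundant, had 4443 CPM in JVL-14 and 4316 CPM in sham, a ratio of 1.03 (0.994 to 1.07), and Col3a1 had 1020 CPM in JVL-14 and 1078 CPM in sham. The type I and III genes that were higher in JVL-14 fibroblasts thus lay between ratios of 0.935 (Col1a1) and 1.03 (Col1a2) in tenocytes. In Ccn3 Sfrp4 cells 23 genes were measured, none was higher, and Col5a1, Col6a3, Col23a1 and Col18a1 were lower, beside 5.77% higher and 6.04% lower of all genes. These 4 were low genes: Col5a1 had 8.10 CPM in JVL-14 and 12.9 CPM in sham, and Col18a1 had 11.8 CPM in JVL-14 and 20.7 CPM in sham. The abundant Col1a2 had 2543 CPM in JVL-14 and 2602 CPM in sham there, a ratio of 0.977 (0.943 to 1.01), Col1a1 had 1897 CPM in JVL-14 and 1984 CPM in sham, and Col12a1 had 649 CPM in JVL-14 and 645 CPM in sham. The median log2 ratio was -0.07 in tenocytes and -0.10 in Ccn3 Sfrp4 cells, beside 0.03 for all genes in each.

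In Schwann or glial cells, 75 in JVL-14 and 88 in sham, 12 genes were measured. Col1a1, Col1a2, Col3a1 and Col5a3 were at least 1.5-fold higher and Col11a1, Col9a2, Col16a1 and Col18a1 at least 1.5-fold lower in JVL-14, beside 17.9% higher and 15.5% lower of all genes measured in these cells. Col1a1 had 336 CPM in JVL-14 and 96.5 CPM in sham, a ratio of 3.48 (2.17 to 5.81), but the 5 cells with most held 89.9% of its UMIs in JVL-14 and 78.3% in sham. Its log2 ratio of 1.78 was 0.41 as a mean over cells and 0.99 without doublet removal. Col1a2 had 723 CPM in JVL-14 and 394 CPM in sham (ratio 1.83, 1.42 to 2.39) and was in 61.3% of JVL-14 and 36.4% of sham cells. Col3a1 had 260 CPM in JVL-14 and 147 CPM in sham, and Col5a3 140 CPM in JVL-14 and 88.1 CPM in sham. Of the lower genes, Col11a1 had 115 CPM in JVL-14 and 185 CPM in sham, Col16a1 93.6 CPM in JVL-14 and 151 CPM in sham, and Col9a2 19 UMIs in JVL-14 and 31 in sham. With at least 500 genes per cell the log2 ratio was -0.10 for Col16a1, -0.12 for Col9a2 and -0.11 for Col11a1, none of them past 1.5-fold. Col4a1 had 238 CPM in JVL-14 and 243 CPM in sham. Its log2 ratio of -0.03 was 0.58 as a mean over cells. It was 0.89 with thinned cells, which keep only part of its 114 UMIs. Summed fibroblast markers stood at 2094 CPM in JVL-14 and 2333 CPM in sham in these cells, with 4 of 14 at 0 UMIs in JVL-14 (Lum, Pdgfra, Clec3b and Pi16) and 2 in sham. Summed tenocyte markers stood at 102 CPM in JVL-14 and 21.0 CPM in sham, with 5 of 9 at 0 in JVL-14 and 6 in sham, and arachnoid barrier markers at 1098 CPM in JVL-14 and 738 CPM in sham, with 6 of 12 at 0 in each. Mural markers stood at 332 CPM in JVL-14 and 1406 CPM in sham, with 8 of 13 at 0 in JVL-14 and 7 in sham, and blood endothelial markers at 264 CPM in JVL-14 and 927 CPM in sham, with 7 of 13 at 0 in JVL-14 and 10 in sham. The part of these markers in the ratios was not tested.

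Outside these groups few collagen chain genes were measured. In macrophages 3 were, none was higher and Col1a1 and Col1a2 were lower, beside 5.61% higher and 6.31% lower of all genes measured there. Col1a1 had 26.3 CPM in JVL-14 and 48.5 CPM in sham macrophages, and Col14a1 had 21.4 CPM in JVL-14 and 19.9 CPM in sham, against 1.76 CPM in JVL-14 and 2.66 CPM in sham background cells. In olfactory or other neurons 4 were measured: Col9a2 was higher, and Col1a2, at 10.6 CPM in JVL-14 and 23.3 CPM in sham, and Col27a1, at 13.4 CPM in JVL-14 and 22.2 CPM in sham, were lower, beside 4.75% higher and 5.81% lower of all genes. In B cell precursors only Col5a3 was measured, and it was lower, at 28.8 CPM in JVL-14 and 57.7 CPM in sham, beside 10.7% higher and 7.61% lower of all genes. In erythroid cells Col1a1 and Col1a2 were lower, beside 89.7% higher and 3.01% lower of all genes, and nothing is read from their ratios. Col1a1 had 10 UMIs in JVL-14 and 63 in sham erythroid cells, and the 5 cells with most held 90.5% of those in sham.

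Partner chains of a trimer differed in how constant their proportions were. Col1a1 was 45.1% (44.4% to 45.8%) of type I UMIs in JVL-14 fibroblasts and 44.8% (44.3% to 45.3%) in sham fibroblasts. It was 51.8% in JVL-14 and 54.7% in sham in osteoblast lineage cells. Col6a1 was between 51.2% and 60.5% of the UMIs of Col6a1 and Col6a2 in every one of the 4 stromal groups of either library. Col8a1 ranged more widely: of the UMIs of both collagen VIII chains it was 67.4% in JVL-14 and 62.7% in sham fibroblasts, 37.7% in JVL-14 and 30.0% in sham tenocytes, and all of them in pineal cells. Across the 23 cell groups Pearson's r was 0.979 for Col4a1 and Col4a2, 0.948 for Col6a1 and Col6a2, 0.916 for Col1a1 and Col1a2, 0.744 for Col5a1 and Col5a2 and 0.512 for Col8a1 and Col8a2, as a description with no test.

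**Figure D5:**
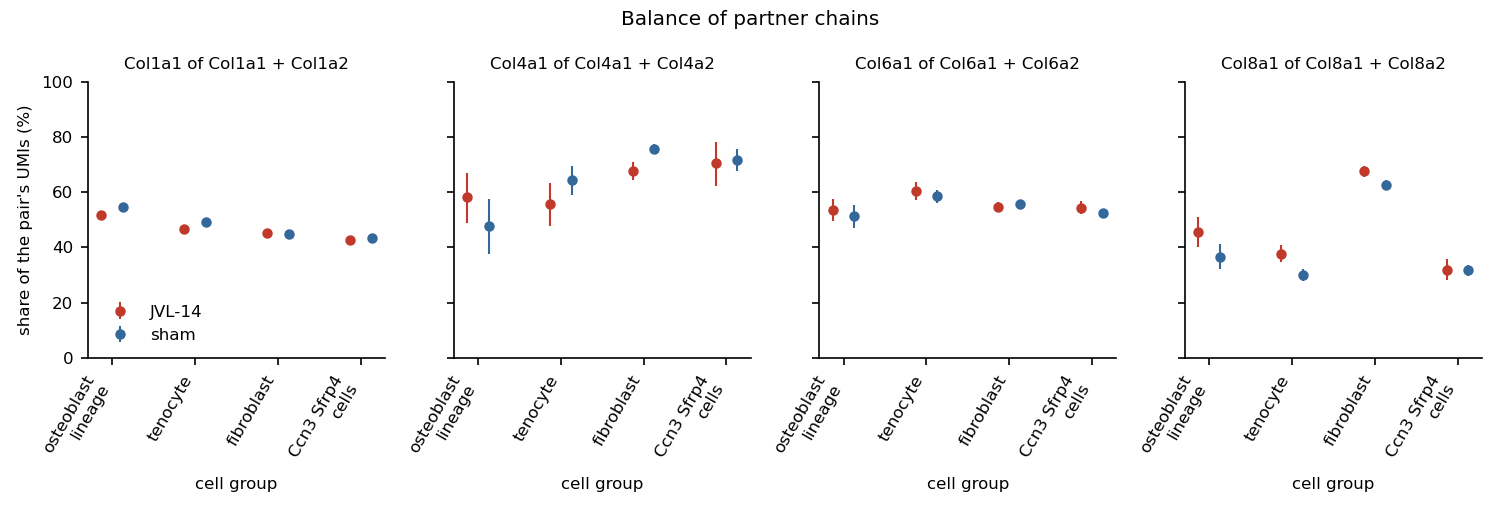
Share of the first chain among the UMIs of a pair of partner chains (vertical axes, %) in 4 stromal groups of JVL-14 (red, left) and sham (blue, right), with exact 95% counting intervals. The Col1a1 and Col6a1 shares stay near the middle in all groups, while the Col8a1 share is 67.4% in JVL-14 fibroblasts and 37.7% in JVL-14 tenocytes.

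Genes that process, bind and break down collagen came from lists chosen by function. Of the 40 measured in fibroblasts, 2 were at least 1.5-fold higher and 2 at least 1.5-fold lower, beside 4.3% higher and 7.11% lower of all genes. Of 19 genes of hydroxylation, glycosylation and folding, 17 were measured in fibroblasts, Plod2 was at least 1.5-fold higher and none was lower, and the summed ratio was 1.18 (1.15 to 1.21). Plod2, which hydroxylates the lysines used for crosslinks, had 184 CPM in JVL-14 and 107 CPM in sham, a ratio of 1.72 (1.52 to 1.95). Crtap, part of the prolyl 3-hydroxylase complex, had 148 CPM in JVL-14 and 108 CPM in sham, a ratio of 1.38 (1.20 to 1.57). The furthest down in this list were P4ha3, with 12.5 CPM in JVL-14 and 18.5 CPM in sham, and P3h3, with 120.1 CPM in JVL-14 and 160 CPM in sham. Serpinh1, the collagen chaperone, was added after its values were seen: it had 1314 CPM in JVL-14 and 1087 CPM in sham, a ratio of 1.21 (1.16 to 1.26). Of 15 genes of export, cleavage and crosslinking, 12 were measured, none was higher and Pcolce2 was lower, with 12.5 CPM in JVL-14 and 38.2 CPM in sham, a ratio of 0.328 (0.217 to 0.482). The 5 cells with most Pcolce2, which helps the enzyme that trims procollagen, held 64.5% of its UMIs in JVL-14 and 39.2% in sham. Loxl1, a crosslinking oxidase, had 409 CPM in JVL-14 and 342 CPM in sham, a ratio of 1.20 (1.11 to 1.30). Adamts3, a procollagen-cleaving protease, had 10.5 CPM in JVL-14 and 7.08 CPM in sham, and Bmp1, another, 41.6 CPM in JVL-14 and 54.5 CPM in sham. Of 10 collagen receptors 7 were measured: Ddr1 was higher, at 30.7 CPM in JVL-14 and 19.7 CPM in sham, and Itga2 lower, at 6.07 CPM in JVL-14 and 9.84 CPM in sham. Next to these, Itga1 had 84.5 CPM in JVL-14 and 70.2 CPM in sham, and Ddr2 144 CPM in JVL-14 and 169 CPM in sham. Of 7 genes of collagen breakdown 4 were measured and none was past 1.5-fold, with the protease Ctsk the furthest up of the 4, at 438 CPM in JVL-14 and 323 CPM in sham (ratio 1.35, 1.25 to 1.46). Mmp2 had 319 CPM in JVL-14 and 273 CPM in sham, and Mmp14 205 CPM in JVL-14 and 179 CPM in sham. Fap, the furthest down, had 60.65 CPM in JVL-14 and 67.87 CPM in sham. In tenocytes 3 of 42 measured genes were higher and 3 lower, beside 5.48% higher and 5.77% lower of all genes: Plod2 was past 1.5-fold higher, at 83.1 CPM in JVL-14 and 52.2 CPM in sham, as were Pcolce2 and Itga1, while Sec24d, Mmp13 and Mmp9 were lower. In osteoblast lineage cells P3h3, at 96.8 CPM in JVL-14 and 178 CPM in sham, and Loxl3, at 47.3 CPM in JVL-14 and 115 CPM in sham, were lower and none was higher among 35 measured, beside 5.32% higher and 8.38% lower of all genes.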

How the data were processed

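Droplet-based single-cell RNA sequencing was measured in 1 JVL-14 and 1 sham library. The deposited matrices hold raw UMI counts per gene and barcode, made with Cell Ranger 8.0.0 per the file headers, on genome build mm39 per the submitters' processing notes; no source used here names the annotation. No barcode had under 500 UMIs. Cells with at least 200 genes and at most 10% mitochondrial UMIs were kept. The automatic doublet threshold marked 0.230% of JVL-14 and 0.121% of sham cells, so the 5% with the highest doublet scores were removed instead (137 in JVL-14 and 279 in sham). Counts were scaled to 10000 per cell and logged, and 2000 variable genes without collagen chain genes, 30 principal components, 15 neighbours and Leiden resolution 1.0 gave the clusters (Python 3.11.15, scanpy 1.11.5, numpy 2.4.6, scipy 1.17.1, leidenalg 0.10.2).

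Clusters were named by at least 3 raised markers and their 10 leading genes. Limits of this naming were set after marker values were seen, and the collagen chain genes and gene lists were chosen with earlier results of these data known. Raw UMIs were summed per library and cell group. Comparisons used groups of 30 cells or more per library, log2 ratios add 0.5 UMIs to each sum, and a gene counts as past the threshold at 1.5-fold. Intervals are exact Poisson, Clopper-Pearson or conditional binomial, and leave out the spread between cells, so they are too narrow where few cells hold most UMIs. Named between libraries were the genes past 1.5-fold and the 5 with most UMIs in a group, and of each pathway list the 2 furthest up and the 2 furthest down. The ratio calculation was tested on simulated data. These were independent Poisson counts, as the intervals assume, so the spread between cells was not part of that check. Alternatives covered filters, doublets, clustering, thinning to 1000 UMIs per cell and cluster composition.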

Additional observations from a re-analysis of the deposited data

Results flagged for a closer look

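Col5a3 lay on opposite sides of no difference in 2 cell groups: its log2 ratio, JVL-14 over sham, was 0.66 in Schwann or glial cells and -0.84 in fibroblasts. The fibroblast value rested on cluster 31, and without it was 0.35. Col11a1 had a log2 ratio of 0.68 in osteoblast lineage cells and -0.67 in Schwann or glial cells, from 117 UMIs in JVL-14 and 86 in sham osteoblast lineage cells, and 27 UMIs in JVL-14 and 44 in sham Schwann or glial cells. The difference between the cell groups was not tested for either gene, since each library is a single sample.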

How the results depend on the processing

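No paired analysis was possible because each group has 1 library. Runs with other filters, doublets kept, collagen genes in clustering or another resolution clustered and named the cells anew, so their groups hold other sets of cells. The summed fibroblast collagen ratio of 1.23 stayed above 1 in every alternative run. It was 1.21 at Leiden resolution 2, 1.19 with at least 500 genes per cell, 1.20 with collagen genes allowed in clustering, 1.20 without doublet removal, 1.21 relative to the median of all measured genes, 1.19 with thinned cells, 1.16 as a mean over cells, 1.25 without clusters under 10 cells in 1 library and 1.05 averaged within clusters. Alternatives chosen after seeing the data gave 1.21 with cluster composition standardised, 1.13 without cluster 6, 1.29 without cluster 11, 1.22 without cluster 19, 1.25 without cluster 31 and 1.15 with fibroblasts, tenocytes and Ccn3 Sfrp4 cells together. The osteoblast lineage ratio of 1.12 was 1.26 with at least 500 genes per cell, 0.954 with at most 5% mitochondrial UMIs, 1.08 with collagen genes allowed in clustering and 0.932 without doublet removal. The fibroblast share of collagen UMIs was 54.8% in JVL-14 and 55.2% in sham with at least 500 genes per cell, 41.8% in JVL-14 and 36.6% in sham with at most 5% mitochondrial UMIs, and 46.2% in JVL-14 and 41.2% in sham with collagen genes allowed in clustering. In sham it was also 35.8% at resolution 0.5, 40.4% at resolution 2 and 38.7% without doublet removal. The fibroblast median log2 ratio of 0.10 was 0.032 with at least 500 genes per cell, 0.00020 averaged within clusters and -0.0031 without cluster 6. Averages within clusters of single genes weigh each cluster alike, also those with few or no UMIs of a gene. There the 0.5 UMIs added to each sum can set the value, and this enters that median and the counts below. The 4 genes past the threshold upward became 1 at 2-fold, 9 with at least 1 UMI and 2 averaged within clusters. The 3 downward became 0 at 2-fold, 8 with at least 1 UMI and 0 averaged within clusters. They became 1 with composition standardised, 1 without cluster 31, 1 without clusters under 10 cells in 1 library and 8 without cluster 6. No share of all genes is given beside these counts, and with at least 1 UMI the genes measured differ too. The counts therefore do not set collagen genes apart from other genes.

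Of 48 log2 ratios of named genes, 22 kept their sign in every alternative, and of the 23 past 1.5-fold, 13 did. Only 2 of those 23 stayed past 1.5-fold in every alternative, Col6a5 in tenocytes and Col18a1 in Schwann or glial cells. Each of these groups was a single cluster in the main run. Averaging within clusters, standardising composition and leaving out small clusters therefore could not change these 2 values. Fibroblast genes had 20 alternatives, against 13 here, so the 2 are not read as firmer. Of the 23, 10 were no longer past it with thinned cells, 10 with at most 5% mitochondrial UMIs, 9 as a mean over cells, 8 averaged within clusters, 6 with at least 500 genes per cell, 5 without doublet removal and 4 at resolution 0.5. Of the 25 not past 1.5-fold, 16 changed sign in an alternative. Col4a1 in Schwann or glial cells moved by over 1.5 times (0.89 thinned). Col12a1 in fibroblasts was -0.53 averaged within clusters. Cluster 20, with 1 Col12a1 UMI in JVL-14 and 15 in sham, weighs as much there as the others, so that value leans on few UMIs. Col5a1 in fibroblasts, at -0.40, was 0.14 without cluster 31. Among the 23, signs turned in fibroblasts for Col15a1 (0.43 averaged within clusters, 0.58 with composition standardised, 0.10 without cluster 31 and without clusters under 10 cells), Col5a3 (0.18 averaged within clusters, 0.35 without cluster 31 and without clusters under 10 cells), Col4a5 (-0.59 without cluster 6), Col26a1 (-0.43 thinned) and Col9a1 (-0.19 with at least 500 genes). They turned in Schwann or glial cells for Col11a1 (0.076 thinned) and Col3a1 (-0.16 with at most 5% mitochondrial UMIs), in osteoblast lineage cells for Col4a1 (-0.14 thinned), and in Ccn3 Sfrp4 cells for Col18a1 (0.29 averaged within clusters) and Col6a3 (0.087 averaged within clusters, 0.45 as a mean over cells). Thinning keeps only part of each gene's UMIs, so a sign that turned only with thinned cells may be counting error and is not read. Col15a1 had no UMI in fibroblast clusters 11 and 19 of either library. Its average of 0.43 within clusters rests on the 0.5 UMIs added there and is not read. The cause of the turned signs was not tested. With 1 library per group, differences between mice, preparations and treatments cannot be told apart. Depth limits the low genes: under 50 UMIs in a group no ratio of the main run was read, while alternatives can rest on fewer.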
